A study of Caenorhabditis elegans with 4 samples.

Results

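Chromosome III of the nematode *Caenorhabditis elegans* carried 351 of the 1702 regions at which the transcription factor LSY-2 was called in second larval stage (L2) hermaphrodites. The regions were taken as all entries on chromosome III in the combined list that the authors deposited, with no threshold beyond the authors' own. The same chromosome held 236 of 1099 regions in the list of LSY-2 ChIP replicate 1 and 172 of 746 in that of replicate 2. LSY-2 was mapped by chromatin immunoprecipitation and sequencing (ChIP-seq), in which fixed chromatin is pulled down with an antibody and the recovered DNA is sequenced. The series has 2 ChIP samples and 2 samples of input DNA, and the 3 lists analysed here come from the ChIP samples. All samples share strain OP240, which carries the unc-119(ed3) mutation and the transgene wgIs240, in which lsy-2 is fused to TY1, EGFP and FLAG tags and unc-119 serves as the rescue marker. The strain was made by bombardment and outcrossed 3 times, the worms were kept at 20 degrees C, and a goat antibody raised on EGFP was used to pull down the tagged protein. Per the labels the fusion follows the spatial and temporal pattern of lsy-2. The endogenous lsy-2 gene is not listed as mutated, so the tagged protein may be present beside untagged LSY-2, and the animals are whole larvae in which all tissues are mixed. An untagged strain was not analysed here.

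LSY-2 is a C2H2 zinc finger protein that is known for switching on the microRNA lsy-6 in the left ASE taste neuron, which sets that neuron apart from its right partner. Worm chromosomes have no single centromere. Each autosome has a gene-dense central part with little recombination and 2 arms that are richer in repeats. Among the genes on chromosome III are unc-119, the marker in the transgene, the Hox genes lin-39, mab-5 and egl-5, which pattern the body axis, and the Notch receptor genes lin-12 and glp-1. Whether a region lies at any of these genes was not determined here, since all positions are in WormBase build WS180 and gene positions of that build were not used.

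Chromosome III was the densest chromosome in each of the 3 lists. It held 25.9 regions per Mb in the combined list, against 15.8 per Mb over the other 5 chromosomes, a ratio of 1.64. In replicate 1 the density was 17.4 per Mb on III and 10.1 per Mb elsewhere, a ratio of 1.72, and in replicate 2 it was 12.7 per Mb on III and 6.71 per Mb elsewhere, a ratio of 1.89. The next densest chromosome was I in the combined list, with 18.7 per Mb, and II in both replicate lists, with 12.7 and 9.21 per Mb. Densities are per span, which for each chromosome reaches from its leftmost to its rightmost called base in the 3 lists and was 13.6 Mb for III. The called sequence on III added up to 196 kb, or 1.45% of its span, against 0.930% elsewhere. Chromosome III was 13.7% of the summed span and held 20.6% of the combined regions (95% exact Clopper-Pearson interval 18.7 to 22.6%), 21.5% of those of replicate 1 (19.1 to 24.0%) and 23.1% of those of replicate 2 (20.1 to 26.2%). Intervals treat regions as independent and cover counting error only. With 2 ChIP samples no test across samples was made, and the labels do not say whether the samples came from separate cultures.

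**Figure D1:**
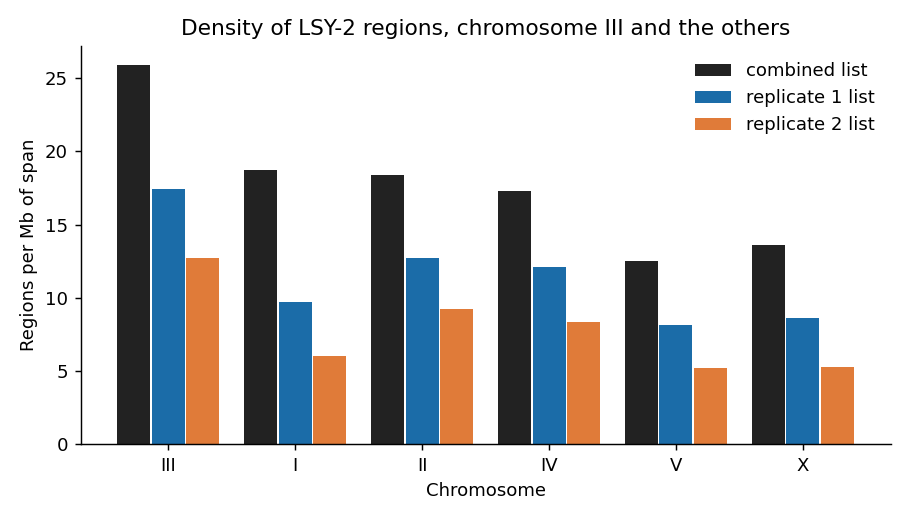
LSY-2 regions per Mb of span on chromosome III and on each other chromosome; the 3 bars of a chromosome are the combined, replicate 1 and replicate 2 lists. Chromosome III has the highest bar in every list, with 25.9, 17.4 and 12.7 regions per Mb.

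The high share of chromosome III was found among the strongest 100 to 400 regions as well as in the whole lists. Strength here is −log10 of the q-value that the peak caller gave a region, and it ranks regions within a list. Among the 100 strongest regions, 24 lay on III in the combined list (16.0 to 33.6%), 23 in replicate 1 (15.2 to 32.5%) and 27 in replicate 2 (18.6 to 36.8%). Among the 400 strongest, III held 22.8%, 25.0% and 23.5% in those lists. These intervals, unlike some of those for the strongest 20 or 50, lay above the 13.7% of the span. Of the weakest 200 regions, III held 47 in the combined list (23.5%, 17.8 to 30.0%), 32 in replicate 1 (16.0%, 11.2 to 21.8%) and 38 in replicate 2 (19.0%, 13.8 to 25.1%). These intervals overlap one another, and the weakest 200 are a different part of each list, as the lists differ in length. The interval for replicate 1 includes the 13.7% of the span, so no excess was resolved there. On III the median −log10 q stood at 8.38 in the combined list, against 7.88 elsewhere. Replicate 1 had medians of 8.74 on III and 7.20 elsewhere, and replicate 2 had 7.16 on III and 6.89 elsewhere. Those are ratios of 1.06, 1.21 and 1.04, so the regions of III were more numerous per Mb while their typical strength was within 1.21 times that of the others.

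**Figure D2:**
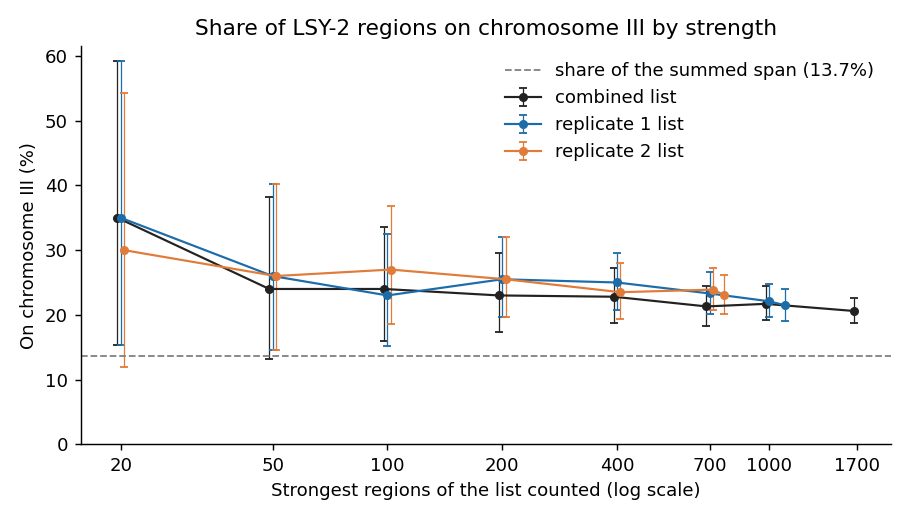
Share of the strongest regions of each list that lie on chromosome III (y axis, %) against how many of the strongest are counted (x axis, log scale); error bars are 95% exact intervals. All 3 lists stay above the dashed line at 13.7%, the share of the summed span, at every count drawn.

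The strongest region of chromosome III lay at 12904548 to 12907171 and ranked 3 in the whole combined list. Its −log10 q reached 198 in the combined list, with 168 for replicate 1 and 158 for replicate 2. The second, at 3866825 to 3870015, had 186, 176 and 171, and the third, at 4474749 to 4476044, had 184, 173 and 160.2. In both replicate lists these 3 came ahead of every other region of III. Over all chromosomes they ranked 8, 4 and 5 in replicate 1 and 5, 2 and 4 in replicate 2. The fourth, at 9764846 to 9766557, had a combined −log10 q of 159 but differed more between the replicates, with 136 and 87.7. The fifth to the eighth, which began at 13462574, 12978165, 8903767 and 1418605, had combined values of 150.3, 147, 143 and 134. Replicate 1 gave them 112, 126, 141 and 77.8, and replicate 2 gave them 86.7, 106, 118 and 63.8. The eighth was thus far weaker in either replicate than the fifth to the seventh, with a combined value 1.72 times that of the stronger replicate.

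The regions ranked 9 to 14 began at 9545514, 8416821, 3456154, 6971276, 7207769 and 7854350. Their combined −log10 q values were 123, 122, 118, 103, 94.1 and 91.0, with 105, 77.3, 94.3, 74.7, 66.8 and 69.9 in replicate 1 and 81.6, 55.5, 61.1, 67.3, 43.7 and 46.1 in replicate 2. Those ranked 15 to 20 began at 9455947, 2780181, 12597742, 10758697, 793556 and 8085241, and their combined values were 84.7, 81.6, 77.5, 77.3, 74.7 and 66.0. Replicate 1 gave these 65.7, 51.7, 56.3, 52.7, 50.1 and 38.4, and replicate 2 gave them 45.5, 35.6, 47.2, 40.2, 35.1 and 33.1. From rank 13 on, no replicate 1 value passed 69.9, whereas the 3 leading regions were at 168 or more. All 20 were called in both replicates, all 20 had the smaller q in replicate 1, and in all 20 the combined q was smaller than either. Over the 20 the lowest, median and highest combined −log10 q were 66.0, 120.1 and 198. For replicate 1 they were 38.4, 77.5 and 176, and for replicate 2 they were 33.1, 62.5 and 171. The ratio of replicate 1 to replicate 2 ranged from 1.03 to 1.55. A q-value depends on read depth as well as on enrichment, and depth is unknown here, so this ratio measures no change in binding.

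**Figure D3:**
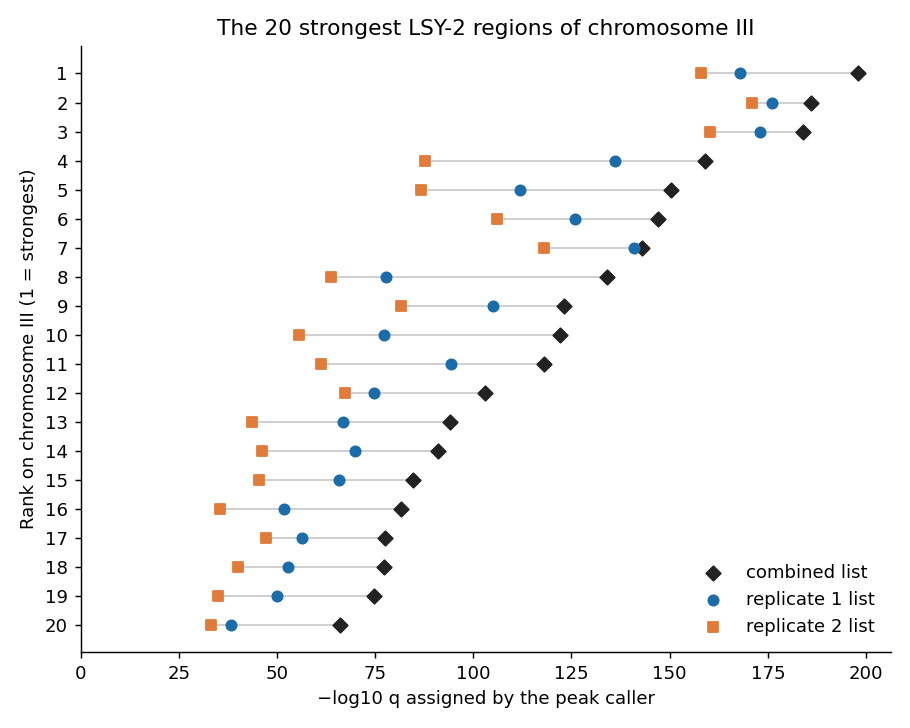
The 20 strongest regions of chromosome III by rank (y axis), with −log10 q in the combined list, replicate 1 and replicate 2 (x axis). Combined values lie rightmost and replicate 2 values leftmost in every row, and the top 3 regions have values of 158 to 198 in all 3 lists.

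Where these strong regions lay differed little between the parts of the chromosome. With the span cut into 3 equal parts of 4.52 Mb, the left, central and right parts held 6, 6 and 8 of the 20. The last of 10 equal bins held 4 of the 20, ranked 1, 5, 6 and 17, while it held 27 of all 351 regions. The sixth and seventh bins also held 4 each, among 51 and 49 regions. The first bin held 2 of the 20 and 21 of the 351. Of the 20, 16 had another combined region within 10 kb, against 189 of all 351 on III and 45.9% over all chromosomes. A width of 1000 bp or more was found in 12 of the 20, against 18 of the other 331 regions of the chromosome.

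The 3 widest regions each held a strong core and a weak flank that at least 1 replicate list kept apart. In the second strongest region, 3191 bp wide and the widest of chromosome III, replicate 1 had a core at 3866899 to 3867999 that reached a −log10 q of 176 and a separate flank at 3868834 to 3869966 that reached 10.4. Replicate 2 called the core alone, at 3867097 to 3867906. In the strongest region, 2624 bp wide, both replicates split it, with 168 and 9.84 for the parts in replicate 1 and 158 and 5.84 in replicate 2. The weak part lay to the right of the core each time, at 12906468 to 12907070 in replicate 1 and 12906623 to 12907093 in replicate 2. The region at 13462574 to 13465438, 2865 bp wide, was a single call of 2695 bp in replicate 1 and 2 calls in replicate 2, with 86.7 and 14.9. The region at 1418605 to 1420459 was the reverse, with 1 call of 1677 bp in replicate 2 and 2 in replicate 1, with 77.8 and 10.4.

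Among the 155 regions of chromosome III found in both replicates, 7 (4.52%, exact interval 1.83 to 9.08%) held 2 calls in at least 1 replicate list, against 8 of 538 (1.49%, 0.644 to 2.91%) on the other chromosomes. The difference was 3.03 percentage points, with a 95% Newcombe interval of 0.317 to 7.60 points, and it was looked at only after the split regions had been seen. Of the 7, 6 ranked among the 8 strongest regions of the chromosome. The remaining region, at 12368347 to 12370273, was weak but wide, at 1927 bp. Replicate 1 had parts with a −log10 q of 5.49 and 5.27 there and replicate 2 a call with 5.90, while the combined list gave it 15.8. The fifth widest, at 13070254 to 13072149, measured 1896 bp and was 1 call in each list, with −log10 q values of 29.2, 20.8 and 15.9 in the combined, replicate 1 and replicate 2 lists.

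Of the 351 regions, 155 overlapped a region in both replicate lists by at least 1 bp (44.2%, exact interval 38.9 to 49.5%), where the background over all chromosomes was 40.7%. Replicate 1 alone was overlapped by 74 (21.1%, background 22.0%), replicate 2 alone by 12 (3.42%, background 2.35%) and neither by 110 (31.3%, background 34.9%). The share in both was 4.34 percentage points above that of the other chromosomes (39.8%), with a 95% Newcombe interval of −1.41 to 10.2 points that includes 0. Chromosomes II and IV were much alike in this, with 46.1% and 45.6% in both. Median −log10 q was 21.6 for regions in both, 7.57 for replicate 1 only, 6.52 for replicate 2 only and 4.40 for neither. Median widths in the same order were 503, 436, 406 and 380.0 bp. The replicate calls and the combined q rest on the same reads, so these medians are a description.

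Recurrence went with strength. All of the 83 strongest regions of chromosome III were in both replicates, down to a −log10 q of 19.0. On the other chromosomes such runs held from 51 regions (I) to 105 (IV) and ended at −log10 q values from 25.4 (I) to 12.6 (IV). The first exception on III, at 12931653 to 12932069, was called in replicate 1 only, with 18.3 in the combined list and 10.3 in replicate 1. It lay 24481 bp to the right of the strongest region. When the 351 were ranked into 4 groups of 87 or 88, 87 of the strongest 88 were in both, then 58 of 88, 9 of 87 and 1 of the weakest 88. Regions of the other chromosomes in the same ranges of −log10 q were in both in 299 of 301, 202 of 335, 37 of 329 and 0 of 386 cases, and the Newcombe interval of each of the 4 differences included 0. In the stronger 50% of the whole combined list, 79.3% of the 184 regions on III were in both, against 76.2% elsewhere (background 76.9%). Replicate 1 overlapped 65.2% of the 351, against 62.1% elsewhere (background 62.7%), and replicate 2 overlapped 47.6%, against 41.9% elsewhere (background 43.1%). The differences were 3.19 points (Newcombe interval −3.93 to 9.40), 3.14 points (−2.58 to 8.60) and 5.68 points (−0.126 to 11.5), and each interval includes 0.

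The other regions of replicate 1 only with the smallest q lay at 5080522 to 5081375 and 13296252 to 13296730, with a combined −log10 q of 15.4 and 14.9. Those of replicate 2 only were weaker. The strongest lay at 7122754 to 7123169, 7335172 to 7335831 and 2100795 to 2101323, with 9.10, 8.42 and 7.79 in the combined list and 6.76, 5.13 and 3.96 in replicate 2. Chromosome III held 12 of the 40 regions of this kind in the series (30.0%, exact interval 16.6 to 46.5%), an interval that includes its 20.6% of all combined regions. Regions called in the combined list alone began at 4508351, 6464039 and 5504018 for the 3 strongest, with a −log10 q of 8.94, 8.61 and 8.43.

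**Figure D4:**
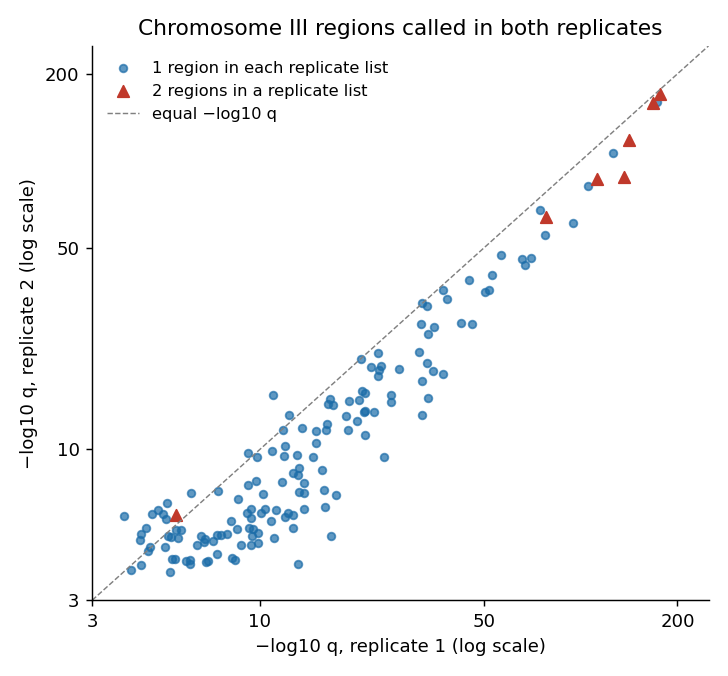
−log10 q in replicate 1 (x axis) and replicate 2 (y axis), both on log scales, for the 155 regions of chromosome III found in both; where a list held 2 calls the stronger is drawn, and these 7 regions are triangles. Most points lie below the dashed line of equal values, and the scatter narrows toward the strong end.

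Set against each other, 159 of the 236 replicate 1 regions of chromosome III were found in replicate 2 (67.4%, exact interval 61.0 to 73.3%, background 64.0%) and 159 of the 172 of replicate 2 in replicate 1 (92.4%, 87.4 to 95.9%, background 94.2%). The first share was 4.34 points above that of the other chromosomes (Newcombe interval −2.64 to 10.9) and for the second the difference was −2.33 points (−7.51 to 1.42), so neither was told apart from 0. All 67 replicate 1 regions of III among the strongest 25% of that list recurred, as did 54 of 66, 27 of 60 and 11 of 43 in the following groups of the list (background 100.0%, 84.7%, 50.7% and 20.4%). The shares for the last 3 groups were 81.8%, 45.0% and 25.6% on III and 85.6%, 52.3% and 19.4% elsewhere. In replicate 2 the counts were 45 of 45, 46 of 46, 41 of 45 and 27 of 36 (background 100.0%, 99.5%, 96.2% and 81.3%). The 77 replicate 1 regions with no partner reached a −log10 q of 11.0, at 10333834 to 10334242, and the 13 of replicate 2 reached 6.76, at 7122791 to 7123114. The second strongest of the 77 was the flank at 3868834 described above, which belongs to a combined region found in both.

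Almost every replicate call of chromosome III had a place in the combined list, 234 of 236 for replicate 1 (99.2%, background 98.2%) and 171 of 172 for replicate 2 (99.4%, background 99.5%). The exceptions were weak and unpaired. Replicate 1 had them at 3540483 to 3540727 and 9509550 to 9510302, with −log10 q values of 4.30 and 4.63, and replicate 2 at 931226 to 931776, at rank 538 of its 746 regions. The region at 9509550 lay 1503 bp from its nearest combined region and the others 30184 and 42754 bp away.

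In 153 cases a replicate 1 region of chromosome III overlapped exactly 1 replicate 2 region, and the other way round. Their midpoints lay a median of 31.0 bp apart, with 136 of 153 within 100 bp, against 25.0 bp and 484 of 534 on the other chromosomes. The replicate 1 call was the wider in 118 and the stronger in 137. Its median width was 453 bp, against 402 bp in replicate 2, and the median ratio of −log10 q was 1.42 on III and 1.39 elsewhere. Ranks by −log10 q had a Spearman correlation of 0.895 across these 153 and of 0.880 across the 534 others. Regions in such a correlation share their libraries and are not independent. Reading the ratio pair by pair, 70 pairs of III had a −log10 q of 10 or more in both lists, and replicate 1 was the stronger in 66 of them.

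The largest and smallest of these ratios, 7.56 and 0.163, came from the split regions at 13462574 and 1418605, where an undivided call in one list meets a weak flank in the other. Among the rest, replicate 1 exceeded replicate 2 most at 4756940 to 4757406, with 32.1 in replicate 1 and 13.2 in replicate 2, a ratio of 2.43. It was followed by a region at the right end of the span, at 13643367 to 13643825, with 33.4 and 15.1, and by regions beginning at 4281770 and 2528614, with ratios of 2.03 and 1.90. Replicate 2 was ahead at 9827190 to 9827869, with 11.0 in replicate 1 and 15.4 in replicate 2, a ratio of 0.715. The other low ratios, at regions beginning at 3509948, 8163527 and 4019805, were 0.928, 0.997 and 1.01, which is close to equal.

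Along the chromosome the regions were densest in the middle. The central part held 152 of the 351 midpoints (43.3%, exact interval 38.1 to 48.7%, background over all chromosomes 38.8%), or 33.6 per Mb, while the left and right parts held 100 and 99, or 22.1 and 21.9 per Mb. In replicate 1 the left, central and right parts held 76, 91 and 69 regions, and in replicate 2 they held 48, 71 and 53. The central share of III exceeded that of the other chromosomes by 5.63 points in the combined list (Newcombe interval −0.0879 to 11.4), 3.10 points in replicate 1 (−3.70 to 10.2) and 4.52 points in replicate 2 (−3.63 to 12.9). Each of these intervals includes 0, so a difference in central share was not detectable at these numbers. In the combined list chromosomes I and V had higher central shares than III, 46.6% and 44.6%. Chromosomes II, IV and X had 35.0%, 34.5% and 26.5%. The higher density of III was present in every part. Over the other autosomes it was 1.51, 1.71 and 1.48 times as dense in the left, central and right parts of the combined list, 1.69, 1.68 and 1.61 times in replicate 1, and 1.68, 1.95 and 1.71 times in replicate 2.

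The weaker regions were the more central ones by count. The central part held 31 of the strongest 88 regions of the chromosome, 37 of the next 88, 43 of the following 87 and 41 of the weakest 88. Its share was 38.6% among the 184 regions of III in the stronger 50% of the combined list (exact interval 31.5 to 46.0%) and 48.5% among the 167 in the weaker 50% (40.7 to 56.3%). On the other autosomes the shares were 38.8% (34.8 to 43.0%) and 41.2% (37.1 to 45.5%). The intervals overlap, and no test of the difference was made. Of the 110 regions called in the combined list alone, 55 were central, against 63 of the 155 in both. Over all chromosomes these counts were 256 of 594 and 262 of 693. Chromosome I was similar to III, with 68 of 133 and 38 of 88. By bins of the span, the sixth held 51 regions, the seventh 49 and the fourth 45, and the first held 21. The third bin had the highest share in both replicates of the 10, with 17 of 27 regions and a median −log10 q of 15.6, and the last had 15 of 27 and 14.9. In the fourth bin only 14 of 45 were in both, although the third strongest region of the chromosome lies there.

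**Figure D5:**
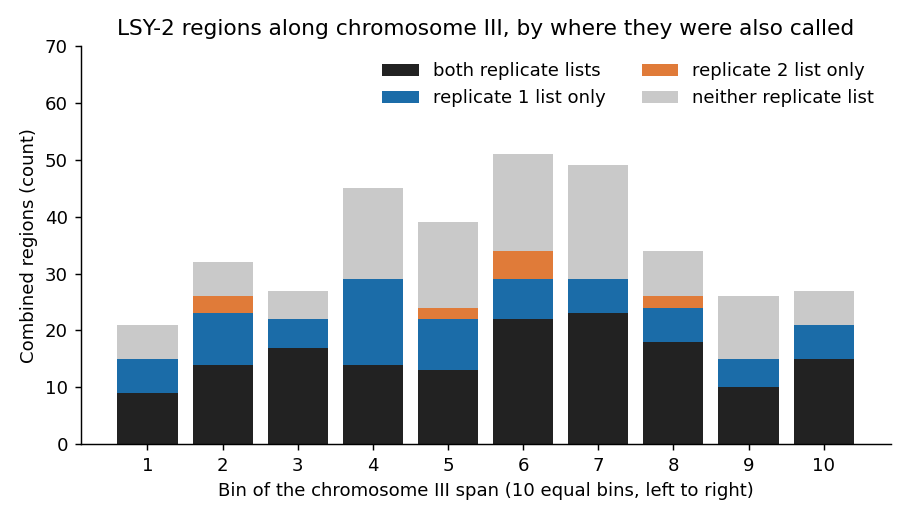
Combined regions (y axis, count) in 10 equal bins of the chromosome III span from left to right (x axis), stacked by whether they were also called in both replicate lists, in replicate 1 only, in replicate 2 only or in neither. The count peaks in the sixth bin, at 51, and the regions of neither list are most numerous in the seventh, at 20.

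LSY-2 regions on chromosome III stood close together, and chromosome I was like it in the share with a neighbour within 10 kb. The median gap between neighbours was 19.7 kb, against 31.3 to 45.7 kb on the other chromosomes, and it was also the smallest in replicate 1, at 30.0 kb, and in replicate 2, at 49.1 kb. Another region lay within 10 kb of 189 of the 351 (53.8%, exact interval 48.5 to 59.2%, background 45.9%). That share was 9.95 points above the other chromosomes (Newcombe interval 4.09 to 15.7). It was 41.5% in replicate 1, 6.99 points above (0.0884 to 14.1), and 33.7% in replicate 2, 7.41 points above (−0.213 to 15.5). Chromosome I was close to III in this, with 52.7% in the combined list (46.7 to 58.6%), 43.2% in replicate 1 (35.0 to 51.6%) and 38.5% in replicate 2 (28.4 to 49.2%), so the share was not particular to III. The other 4 chromosomes had 36.8 to 48.3% in the combined list. Closer neighbours also follow from a higher density, and that part was not tested. With regions under 1000 bp apart merged, which left 326, the share was 47.5%. It was 35.3% when the list was first cut to its stronger 50%, so that weaker neighbours no longer counted. That value therefore does not show that strong regions stood more alone.

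Linked by gaps of 10 kb or less, 189 regions formed 76 groups, 53 of them with 2 members and 23 with 3 or more, and 162 regions stood alone. Of the grouped regions 88 were in both replicates (46.6%, exact interval 39.3 to 53.9%) and of the lone ones 67 (41.4%, 33.7 to 49.4%), and the medians of −log10 q were 8.43 and 8.27. The largest group had 7 regions between 1920932 and 1940182, of which 2 were in both replicates and none exceeded a −log10 q of 19.7. Another 4 of its regions had a call in only 1 of the replicate lists.

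Windows of up to 100 kb held at most 11 regions on III and at most 7 to 9 on each other chromosome. The window at 7122754 to 7208478 held 11, among them 5 in both replicates and 3 of the 12 regions of replicate 2 only, and it ended with a strong region of −log10 q 94.1 at 7207769. The other window of 11, at 8794662 to 8889247, had 6 in both and no strong region, its highest −log10 q being 24.0 at 8799459 to 8800916. In it 5 regions were packed between 8794662 and 8802704, 4 of them in both replicates, with combined −log10 q values of 6.12, 17.0, 9.88, 24.0 and 20.8 from left to right. The window at 1859486 to 1951882 held 10 regions with 4 in both, led by the region at its left edge with a −log10 q of 52.0. The window at 4413996 to 4508692 held 9 regions, and only the third strongest region of the chromosome, at 4474749, was in both. That region, with a combined −log10 q of 184, had neighbours of 5.76 to 8.94, and 6 of them were called in replicate 1 only. The fifth window, at 8355001 to 8447273, held 8 regions, with −log10 q values of 122, 60.4 and 34.4 among the 4 in both.

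The longest stretches without a combined region ran from 11343311 to 11641259 (298 kb), from 6615358 to 6887572 (272 kb) and from 355375 to 612027 (257 kb). No replicate call lay wholly inside any of the 3, and the only overlap was a replicate 1 call that reached 59 bp into the left end of the one of 257 kb. Of the 350 gaps on III, 36 were 100 kb or longer, against 42 to 68 on each other chromosome, all of which have longer spans. In replicate 1 the count was 48 on III and 52 to 71 on the others. In replicate 2 it was 46 on III and 41 on I, with 53 to 61 on the rest. The second stretch lies mostly in the fifth bin and ends inside the sixth, the densest bin of the chromosome, which begins at 6865525.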

How the data were processed

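The data are 3 deposited lists of regions, 1 for each ChIP sample and 1 combined. Per the file headers the build is WormBase WS180, and the lists name PeakSeq, a program that scores ChIP reads against a control, as the caller. For each region they give limits and a q-value, which the authors deposited as the caller wrote it. No source used here gives the aligner, the caller's settings, how replicates were joined or how many reads there were, so depth and its precision are unknown. Samples were grouped by title, since the descriptions contradict the titles.

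The q-values were turned into −log10 q. Regions were shared at an overlap of 1 bp or more. Shares have 95% exact Clopper-Pearson intervals and differences have Newcombe intervals, for counting error only. No p-value was computed. Named regions are the 20 with the smallest q, the 5 widest, the 3 strongest of each class found in fewer than both replicates, replicate regions outside the combined list, the 5 largest and 5 smallest replicate ratios with −log10 q of at least 10, the 5 densest windows and the 3 longest gaps. Other regions, and the looks at split regions and at central position by strength, were chosen after values were seen. The regions and the comparisons were chosen with earlier results of these data known. Alternatives were other overlap rules, stronger regions, lists of equal length, merging of regions under 1000 bp apart and either replicate alone. Leaving out chromosome I was added after the data were seen. Region sequences and gene assignments were not used here, as no genome or gene positions of the build were at hand. The code recovered the planted class of 1702 of 1702 simulated regions. The planted lists were slightly shifted copies of combined regions, so this checks the overlap code and not small overlaps or split calls. The tools were scipy 1.17.1, numpy 2.4.6, pandas 2.3.3 and matplotlib 3.10.9 under Python 3.11.15.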

Additional observations from a re-analysis of the deposited data

How the results depend on the processing

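Of 37 alternative values for 8 results on chromosome III, 26 stayed within the interval or spread of the value in the report and 11 moved outside it. Plain shares have no direction to turn. The difference in the share found in both replicates and the ratio of medians have one, and no alternative turned it. All 7 alternatives for the difference in the share found in both replicates left it between 2.10 and 5.68 points. Each of their intervals included 0, as did that of the value in the report. In the stronger 50% of the combined list the share in both was 79.3%. The share with a neighbour within 10 kb was 35.3% there, where weaker neighbours were left out of the count. With regions under 1000 bp apart merged, the share with such a neighbour was 47.5%. Lists of equal length moved the recovery of replicate 1 regions in replicate 2 to 79.3% and the reverse to 80.8%, since replicate 1 then holds fewer weak regions. Without chromosome I, III held 24.7% of the list, which has fewer regions by construction. With either replicate left out, the share overlapping the remaining replicate list was 47.6% to 65.2%. This share cannot fall below the 44.2% found in both. For the following values the remaining replicate list took the place of the combined list, so the quantities are not the same. The share of the list on III was then 21.5% to 23.1% and the ratio of medians 1.04 to 1.21. The share with a neighbour within 10 kb was 33.7% to 41.5%. No paired analysis was possible because the input samples gave no values to set against ChIP. Absence from a list means that a region was not called, at a depth that is unknown.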

Other observations

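Wider regions of chromosome III were also stronger, with a Spearman correlation of width and −log10 q of 0.445 across 351 combined regions, 0.362 across 236 in replicate 1 and 0.374 across 172 in replicate 2. On the other chromosomes the values were 0.428, 0.440 and 0.512. The caller set both measures, and regions of a list share their library. In the 155 regions of chromosome III found in both replicates, the combined −log10 q was a median of 0.910 times the sum of the replicate values, and 1.55 times the stronger of them. Of the 20 strongest regions 4 lay above that share of the sum, and the lowest of the 20 was 0.536 at 3866825 to 3870015. In 2 of the 155 the combined value was not the largest. At 1950230 to 1950799 it was 7.34, with 9.12 for replicate 1 and 6.01 for replicate 2, and at 10621079 to 10621481 it was 6.13, with 6.38 and 4.66.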
